A study of Homo sapiens with 6 samples.

Results

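ATP-binding cassette (ABC) proteins use ATP to move lipids, drugs, conjugates, haem precursors or peptides across membranes, and the ABCF proteins use the same kind of ATPase on the ribosome. The rows described here are the protein-coding genes of subfamilies ABCA, ABCB, ABCC, ABCD, ABCF and ABCG, chosen by symbol, 44 of the 62710 genes in the table. ABCE1, a ribosome recycling factor, was left out by the rule, and so were both rows named ABCC13, which are not annotated as protein-coding. By subfamily there were 12 ABCA, 9 ABCB, 11 ABCC, 4 ABCD, 3 ABCF and 5 ABCG genes.

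HT1080, an established human fibrosarcoma line, was either left untreated or given 20 ng/mL IFNβ for 24 h, with 3 RNA sequencing libraries in each group. The labels name human IFNβ, whereas the study's RNA sequencing methods name the mouse protein. Both groups are the same single cell line, and the labels do not say whether the libraries of a group came from separate cultures. The study's methods state, for its in vitro work in general and not for the RNA sequencing by name, that biological replicates were independent. The p-values measure the spread between these libraries, which may be technical. The values are FPKM, fragments divided by gene length and by library depth. For 18024 genes the implied length was the gene's exon length in GENCODE release 29. It was 13282 bp for ABCB9 and 2579 bp for ABCF2. The lengths of the transcripts present were not known, so levels of different genes compare only as far as the exon lengths match them. Orders by FPKM, called abundance below, and FPKM thresholds depend on these exon lengths, while both groups of a gene share the same length. The FPKM and these exon lengths put the depth between 22848104 and 32915500 fragments per library. Pairs of libraries within a group had chi-square values of 1.78 to 3.38 per degree of freedom, where counting error alone gives about 1, so no pair differed by less than the sampling noise.

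The libraries carried the marks of the line and of the treatment. The 6 mesenchymal markers summed to between 839 and 893 FPKM in untreated cells and between 799 and 837 FPKM after IFNβ, with 1 marker higher and 3 lower. Epithelial markers summed to at most 0.653 FPKM, leucocyte markers to at most 1.12 FPKM, nearly all of it CSF1R, endothelial markers to at most 0.441 FPKM and hepatocyte markers to at most 0.0219 FPKM. CLDN4 was the epithelial marker that rose, with 0.575 FPKM after IFNβ (limma adjusted p = 0.047). IFIT1, an antiviral gene induced by interferon, stood at 0.916 ± 0.0380 FPKM without and 413 ± 3.30 FPKM with IFNβ (S.D. of 3 libraries each). The summed FPKM of the mitochondrial rRNA genes fell from between 2357 and 2368 to between 833 and 854. The part of these shifts in the changes below was not tested, and in bulk RNA fewer cells of a kind and less RNA per cell cannot be told apart.

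ABC genes are best known in tumour cells for drug efflux. Several of subfamily ABCC export glutathione, glutathione conjugates or drugs, and so bear on the glutathione pool that protects lipids from peroxidation. ABCA proteins and part of ABCG move cholesterol and phospholipids, several ABCB proteins sit in mitochondria or lysosomes, and ABCD proteins bring fatty acids into peroxisomes or vitamin B12 out of lysosomes. Type I interferons act through STAT transcription factors, which bind the interferon-stimulated response element (ISRE) and the gamma-activated site (GAS) of target promoters.

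In HT1080 cells the ABC genes moved in both directions after IFNβ, by small amounts. Of the 44 genes, 24 reached a mean of 0.1 FPKM over the 6 libraries and were tested with limma on log2(FPKM + 0.1), together with all other genes of the table above that level. Genes whose p-value, adjusted by Benjamini-Hochberg over all 20716 genes tested, was under 0.05 were called. Among the ABC genes 13 of 24, or 54.2%, were called, against 32.7% of all genes tested. The 9 that rose, where 15.2% of all genes tested rose, included ABCA7, ABCB6, ABCB9, ABCC3, ABCC10, ABCD4, ABCF1 and ABCF3. ABCC1, ABCC4, ABCD3 and ABCF2 were the 4 that fell, where 17.5% of all genes fell. The called share depends on level across the table, and the 32.7% joins all levels. With an untreated mean of at least 5 FPKM, 6 of 10 ABC genes were called, beside 4052 of 6879 of all genes tested. Below 5 FPKM it was 7 of 14 ABC genes, beside 2726 of 13837 of all genes tested.

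None of the 24 was a differentially expressed gene (DEG), a gene called in limma whose log2 fold change is also 1 or more in size, a call that 4.22% of all genes tested received. At an unadjusted p under 0.05 there were 19 of the 24, against 41.6% of all genes tested, and limma-voom on the recovered fragments also gave 0 DEGs among them. The median log2 fold change was 0.16 over the tested ABC genes and 0.00017 over all genes. Treated and untreated libraries did not overlap for 22 of the 24, including all 13 called, a separation found for 46.6% of all genes tested. ABCA1 and ABCB8 were the pair that overlapped. Fold changes on this scale understate the change of genes with few FPKM.

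**Figure D1:**
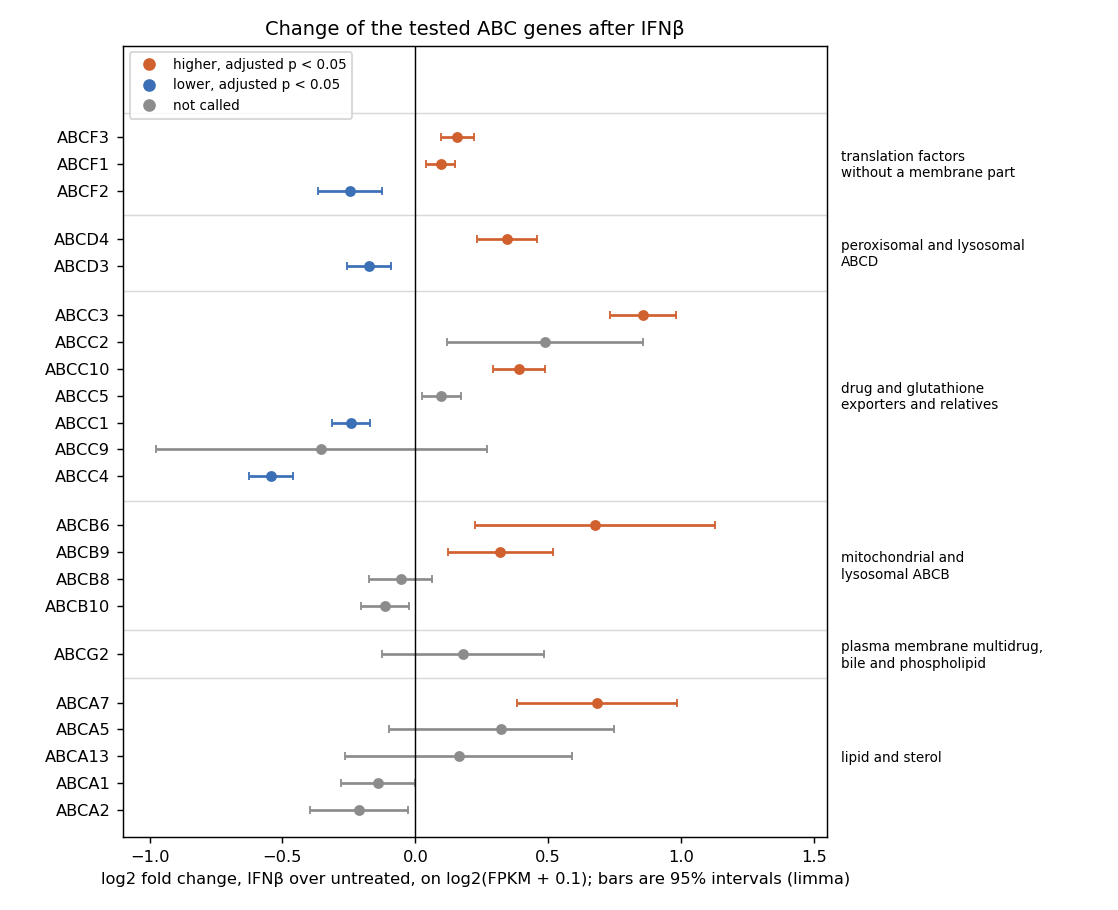
Log2 fold change of each tested ABC gene after IFNβ on log2(FPKM + 0.1), with 95% intervals from limma on the horizontal axis and genes grouped by role on the vertical axis. Orange points are genes called higher, blue points the 4 called lower and grey points those not called. The figure shows 22 of the 24 tested genes. The points run from -0.54 for ABCC4 to 0.86 for ABCC3.

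The level of these genes in untreated cells ran from 40.1 FPKM to nothing detected. ABCF1 was highest at 40.1 ± 0.671 FPKM, followed by ABCF3 at 13.6 ± 0.248, ABCC1 at 13.4 ± 0.369, ABCB10 at 12.3 ± 0.308 and ABCF2 at 9.58 ± 0.262 FPKM (S.D. of 3 libraries each). In the order of untreated means the libraries of most neighbouring genes were fully separate. Exceptions were ABCF3 with ABCC1, ABCC5 with ABCD3, ABCC4 with ABCA2, ABCA1 with ABCB8, ABCC2 with ABCG2, and ABCA5 with ABCB6, whose levels overlapped. In all, 17 of the tested genes had an untreated mean of at least 1 FPKM, and the tested genes rested on means of 47.3 to 5286 fragments per library.

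The other 20 genes lay under the filter and were not tested. Their highest mean was 0.0668 FPKM, for ABCA3, and none had over 26 fragments in any library. ABCG1 was listed at 0 throughout, and 6 more had at most 3 fragments in every library. Those under the filter included ABCB1, the classical multidrug efflux pump, with 1, 1 and 3 fragments in untreated cells and 1, 4 and 2 after IFNβ. They also included the bile transporters ABCB4 and ABCB11, the sterol transporters ABCG4, ABCG5 and ABCG8, the peroxisomal ABCD2, the lipid transporter genes ABCA3, ABCA4, ABCA6, ABCA8, ABCA9, ABCA10 and ABCA12, and ABCB5. The remaining 4 were ABCC6, ABCC8, ABCC11 and ABCC12. Of these 20, 4 had all treated libraries above all untreated ones and 0 the reverse, where 7.09% and 1.99% of all genes under the filter with a value above 0 were separated in those directions. None of the 20 was called when the filter was dropped. That fit still added 0.1 FPKM, more than the mean of any of them, so it could not decide whether they changed.

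The ABCC genes, taken apart, split evenly. Of the 11 there were 7 tested and 4 called, or 57.1%, against 32.7% of all genes tested. Of those 4, ABCC3 and ABCC10 rose and ABCC1 and ABCC4 fell. ABCC1, ABCC4 and ABCC5 had untreated means of at least 5 FPKM, where 4052 of 6879 genes tested were called. The other tested ABCC genes lay below it, where 2726 of 13837 were called. The median log2 fold change of the 7 was 0.097, with a range from -0.54 to 0.86. Both genes that fell were among the 3 with the highest untreated FPKM of the subfamily, ABCC1, ABCC5 and ABCC4.

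ABCC1 exports glutathione, its conjugates and leukotriene C4, and lies on the plus strand of chromosome 16 from 15949577 to 16143074 (GENCODE release 29 on GRCh38, as for all genes below). It had 13.2, 13.9 and 13.2 FPKM in the untreated libraries and 11.5, 11.1 and 11.4 FPKM after IFNβ. All treated libraries were below all untreated ones. The fall was 15.5%, or -0.24 on the log2 scale (SE 0.030, adjusted p = 0.0014 in limma).

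ABCC4, which exports cyclic nucleotides, prostaglandins and drugs, showed the largest fall among the called ABC genes. Its FPKM were 6.44, 6.47 and 6.32 in untreated cells and 4.41, 4.24 and 4.44 after IFNβ. The groups stood far apart relative to their spread. ABCC4, on the minus strand of chromosome 13 from 95019829 to 95301475, fell by 31.9%, or -0.54 on the log2 scale (SE 0.034, adjusted p = 8.2e-05 in limma).

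ABCC3 exports glucuronide and glutathione conjugates across the basolateral membrane of epithelia. It had 1.66, 1.62 and 1.59 FPKM in the untreated libraries and 3.013, 2.97 and 3.07 FPKM in the treated ones. All treated libraries were above all untreated ones, with little spread in either group. Among the ABC genes this was the smallest adjusted p-value, 6.7e-05 in limma, for a rise of 85.9% or 0.86 on the log2 scale (SE 0.051). ABCC3 is on the plus strand of chromosome 17 from 50634777 to 50692252.

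ABCC10 confers resistance to taxanes and vinca alkaloids and lies on the plus strand of chromosome 6 from 43427366 to 43450430. Its values were 3.24, 3.43 and 3.30 FPKM in untreated cells and 4.33, 4.40 and 4.45 FPKM after IFNβ, without overlap. It rose by 32.1%, or 0.39 on the log2 scale (SE 0.040, adjusted p = 0.00066 in limma). Its exons share 79 bp with DLK2 on the other strand, and DLK2 itself did not pass the test, at 1.23 ± 0.0831 and 1.24 ± 0.182 FPKM (S.D. of 3 libraries, limma adjusted p = 0.98).

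ABCC2, ABCC5 and ABCC9 were not called. ABCC2, the exporter of bilirubin glucuronides and glutathione conjugates in liver, had 0.531, 0.469 and 0.454 FPKM untreated and 0.733, 0.603 and 0.835 FPKM treated. The groups did not overlap, the 95% interval of the log2 fold change was 0.12 to 0.86 around 0.49, and the limma adjusted p of 0.053 lay just outside the threshold. ABCC5, an exporter of cyclic nucleotides, had 8.28, 8.42 and 8.43 FPKM untreated and 9.26, 8.85 and 8.80 FPKM treated. Its log2 fold change of 0.097 had an interval of 0.024 to 0.17 (limma adjusted p = 0.051). The groups did not overlap.

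ABCC9 encodes a sulphonylurea receptor, a regulatory subunit of potassium channels and not an exporter. It had 0.115, 0.125 and 0.162 FPKM untreated and 0.0966, 0.0870 and 0.0653 FPKM treated, from 33 to 93 fragments per library. The log2 fold change was -0.35 with an interval from -0.98 to 0.27 (limma adjusted p = 0.36). All 3 of these genes were called with limma-voom, ABCC2 and ABCC5 higher and ABCC9 lower, which made 7 of 7 ABCC genes, where limma-voom called 38.3% of all genes tested. ABCC9 passed the filter, at a mean of 0.108 FPKM, through its untreated libraries, since its treated mean was 0.0830 FPKM. Its place among the 7 and its direction therefore depend on the untreated level.

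**Figure D2:**
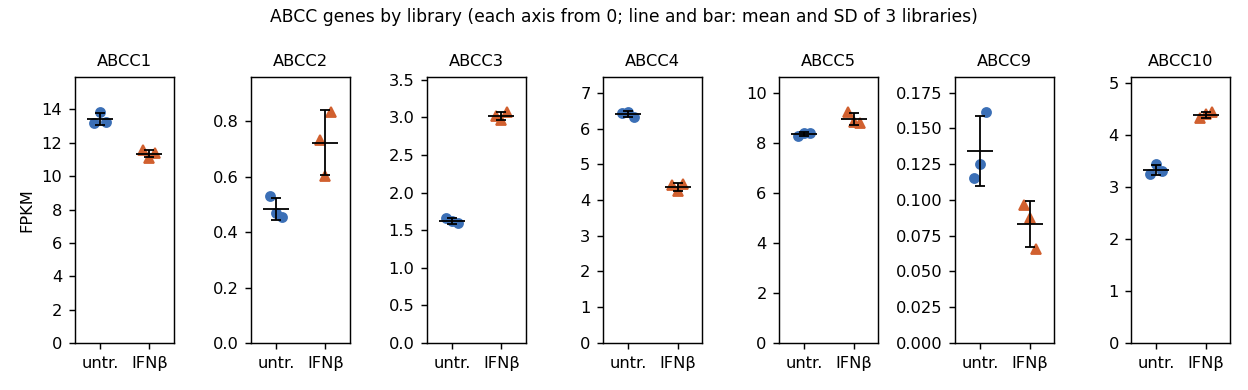
FPKM of the 7 tested ABCC genes by library, each panel with its own axis from 0, untreated libraries as blue circles and IFNβ libraries as orange triangles, with the mean and S.D. of 3 libraries in black. ABCC3 and ABCC10 lie higher and ABCC1 and ABCC4 lower after IFNβ, without overlap.

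The summed level of the subfamily moved little. The 11 ABCC genes together had 33.5, 34.4 and 33.5 FPKM in untreated cells and 33.4, 32.3 and 33.1 FPKM after IFNβ, all treated libraries lying below the untreated ones by a narrow margin. The make-up of that sum shifted. ABCC1 took 39.4%, 40.3% and 39.5% of it in untreated libraries and 34.5%, 34.4% and 34.4% in treated ones. The groups did not overlap, although with 3 libraries against 3 an exact two-sided permutation test cannot give a p below 0.10. The sum over all 44 ABC genes was 146 ± 0.953 FPKM in untreated and 149 ± 1.95 FPKM in treated cells (S.D., n = 3 each).

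Promoter sequence was looked at for the motifs of interferon and of oxidative stress signalling, since several ABCC genes are known targets of the stress factor NRF2. RefSeq promoters on GRCh38.p14, taken here as the 250 bases before an annotated start, were given for 34 of the 44 ABC genes, ABCC1 and ABCC3 being among those without one. Letters were searched on both strands as GAAANNGAAA for the ISRE core, TTCNNNGAA for GAS, TGACNNNGC for the antioxidant response element core that NRF2 binds, and GGGCGG for the GC box. The share of all genes with a promoter given was 3.71% for the ISRE core, 8.09% for GAS, 13.2% for the antioxidant core and 46.2% for the GC box, a gene counting when any of its starts held the letters.

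None of the called ABC genes with a promoter in the table, 7 higher and 3 lower, held the ISRE core or GAS letters in this window. ABCC2 was the tested gene with the ISRE core, 140 bases before its start, and ABCC5 and ABCG2 were those with GAS letters; none of these passed the test. The antioxidant core was found in 5 of the 7 genes that rose (ABCB6, ABCB9, ABCC10, ABCD4 and ABCF1). It was also found in ABCC4 of the 3 that fell, that is, in genes of both directions. Among all tested ABC genes with a promoter given, 7 of 20 held it, including ABCA2, which was not called. The sites in ABCB6, ABCB9 and ABCD4 were not outside annotated exons. Tested ABC genes had a median of 65.8% G and C in the windows of their 28 starts against 58.0% for all promoters, and 17 of 20 held a GC box.

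The stretches with these letters are shown for the ABCC genes, and for ABCF1 as the most abundant member, from 5′ to 3′ with the matched letters in capitals and without bases that release 29 counts as exon. They are chr10:99782460-99782549 (plus) for ABCC2, chr3:184018016-184018076 (minus) for ABCC5, chr13:95301552-95301640 (minus) for ABCC4, chr6:43427390-43427446 (plus) for ABCC10 and chr6:30571256-30571344 (plus) for ABCF1. The stretch of ABCC10 lies inside the gene as release 29 gives it, from 43427366, and before a later RefSeq start. The capitals are the ISRE core in ABCC2, GAS in ABCC5 and the antioxidant core in the others, read on the opposite strand in ABCC4 and ABCF1, while GC boxes are left in lower case.
ABCC2: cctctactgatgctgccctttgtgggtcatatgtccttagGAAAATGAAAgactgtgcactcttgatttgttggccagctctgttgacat
ABCC5: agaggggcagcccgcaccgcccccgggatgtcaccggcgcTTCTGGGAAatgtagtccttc
ABCC4: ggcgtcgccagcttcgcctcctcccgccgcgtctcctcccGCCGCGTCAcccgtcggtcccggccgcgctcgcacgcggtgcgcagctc
ABCC10: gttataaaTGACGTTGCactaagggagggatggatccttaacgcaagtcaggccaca
ABCF1: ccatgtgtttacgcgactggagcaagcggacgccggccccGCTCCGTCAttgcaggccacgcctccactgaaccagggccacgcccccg
A match of letters is a description and not a bound site. ABCC2 and ABCC4 also differ in base composition over the full 250 bases, with 45.6% G and C in ABCC2 and 80.4% in ABCC4.

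Genes that use or renew glutathione, the molecule that ABCC1 and some of its relatives export, included 4 that rose and 6 that fell, of 21 tested in a list of synthesis, degradation and transferase genes. The called share was 47.6%, against 32.7% of all genes tested, with a median log2 fold change of -0.01. Among all genes tested, 4052 of 6879 with an untreated mean of at least 5 FPKM were called, and 2726 of 13837 below it. The 32.7% set beside each list joins both levels. Among those averaging at least 1 FPKM the largest changes were rises of GSTK1, a mitochondrial and peroxisomal glutathione transferase, from 9.82 ± 0.0918 to 13.5 ± 0.955 FPKM, and of CHAC1, which degrades glutathione, from 2.98 ± 0.334 to 4.06 ± 0.330 FPKM (S.D. of 3 libraries, limma adjusted p = 0.00098 and 0.016). GCLC, the catalytic subunit of the first step of synthesis, and GGT7 were the others that rose. The 6 that fell were GCLM and GSS of glutathione synthesis, the glutathione reductase GSR, GGCT, which acts on gamma-glutamyl peptides, the transferase GSTO1, and GPX4, the peroxidase that reduces lipid hydroperoxides with glutathione. GPX4 stood at 37.0 ± 1.59 FPKM without and 31.1 ± 1.00 FPKM with IFNβ (S.D. of 3 libraries, limma adjusted p = 0.0037), a log2 fold change of -0.25. The lists' naming rule does not single GPX4 out, and it was chosen after its values were seen.

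Among the multidrug transporters outside ABCC, the one that could be tested was ABCG2, the breast cancer resistance protein. It had 0.469, 0.475 and 0.488 FPKM untreated and 0.516, 0.579 and 0.568 FPKM treated. The treated libraries were all higher, with a log2 fold change of 0.18 whose interval ran from -0.12 to 0.48 (limma adjusted p = 0.34), and ABCG2 was not called by limma-voom either. ABCB1, ABCB4, ABCB5 and ABCB11 made up the rest of this group.

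The lipid and sterol transporters were mostly silent. Of 16 genes 5 were tested and 1, ABCA7, was called. ABCA7, a phospholipid transporter known from phagocytes and from the genetics of Alzheimer's disease, had 0.552, 0.580 and 0.605 FPKM untreated and 0.860, 1.10 and 1.03 FPKM treated. It rose by 71.9%, or 0.68 on the log2 scale (SE 0.12, adjusted p = 0.0069 in limma). The gene is on the plus strand of chromosome 19 from 1040101 to 1065572.

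ABCA1, which loads cholesterol on apolipoprotein A-I, was at 5.03 ± 0.316 and 4.55 ± 0.178 FPKM (S.D. of 3 libraries each) with overlapping groups and a 95% interval of the log2 fold change from -0.28 to -0.0013 (limma adjusted p = 0.12). ABCA2, a lipid transporter of lysosomes, had a log2 fold change of -0.21, ABCA5 of 0.32 and ABCA13 of 0.16 (limma adjusted p = 0.079, 0.22 and 0.54). Limma-voom called ABCA1 and ABCA2 lower and ABCA5 higher. Of 18 tested partners in sterol efflux and uptake, 8 rose and 4 fell, a called share of 66.7% against 32.7% of all genes tested, with a median log2 fold change of 0.08. LIPA, the lysosomal lipase that frees cholesterol from its esters, was the DEG of this list, from 14.5 ± 0.216 to 31.0 ± 1.22 FPKM (S.D. of 3 libraries, limma adjusted p = 2.9e-06). MYLIP, which marks the LDL receptor for degradation, rose from 1.57 ± 0.0625 to 2.86 ± 0.291 FPKM (limma adjusted p = 0.00073).

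All 5 ABCB genes of mitochondria and lysosomes were tested, and ABCB6 and ABCB9 rose. ABCB6, a porphyrin transporter, had 0.286, 0.188 and 0.210 FPKM untreated and 0.424, 0.423 and 0.412 FPKM treated, resting on 29 to 68 fragments per library. The difference on the log2 scale was 0.68 (SE 0.19, adjusted p = 0.034 in limma), and the call was lost on leaving out any library except untreated replicate 1, with adjusted p-values of up to 0.092. ABCB6, on the minus strand of chromosome 2 from 219209766 to 219219017, shares 2864 bp with AC068946.2, which had at most 6 fragments in any library.

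ABCB9, a lysosomal peptide transporter related to the TAP proteins of antigen presentation, had 1.95, 2.30 and 1.91 FPKM untreated and 2.51, 2.66 and 2.57 FPKM treated. It rose by 25.7%, or 0.32 on the log2 scale (SE 0.082, adjusted p = 0.026 in limma). The call was lost on leaving out any library except untreated replicate 2, with adjusted p-values of up to 0.085. ABCB9, on the minus strand of chromosome 12 from 122920951 to 122981649, overlaps ARL6IP4 and OGFOD2 on the other strand. These had 0.247 ± 0.0331 and 0.257 ± 0.0551 FPKM in untreated cells (S.D., n = 3 each). Whether the counting used strand, and how shared fragments were given out, is not stated in the sources used here, so the level of ABCB9 is uncertain to that extent.

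The mitochondrial ABCB8 and ABCB10 were not called. ABCB10, which supports haem synthesis in mitochondria and is the fourth most abundant ABC gene, had 12.6, 11.9 and 12.3 FPKM untreated and 11.05, 11.05 and 11.9 FPKM treated. The highest treated library stayed below the lowest untreated one by less than 0.1 FPKM, and the difference on the log2 scale was -0.11 (SE 0.038, adjusted p = 0.064 in limma). ABCB8, of the inner membrane, was at 4.70 ± 0.255 and 4.52 ± 0.0903 FPKM (S.D. of 3 libraries, limma adjusted p = 0.46).

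The genes of haem and iron-sulphur synthesis, which these mitochondrial transporters serve, numbered 21 among those tested. In limma 11 of them fell and 0 rose, where 17.5% of all genes tested fell and 15.2% rose. Most stood at an untreated mean of 5 FPKM or more, where 2660 of 6879 genes tested fell and 1392 rose. Limma-voom also counted 11 lower and 0 higher, against 20.2% and 18.1% of all genes, and 11 had an unadjusted p under 0.05 in limma. The median log2 fold change was -0.17. LYRM4 fell from 5.11 ± 0.346 to 3.88 ± 0.231 FPKM (S.D. of 3 libraries, limma adjusted p = 0.0057). It belongs to the complex that builds iron-sulphur clusters in mitochondria.

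**Figure D3:**
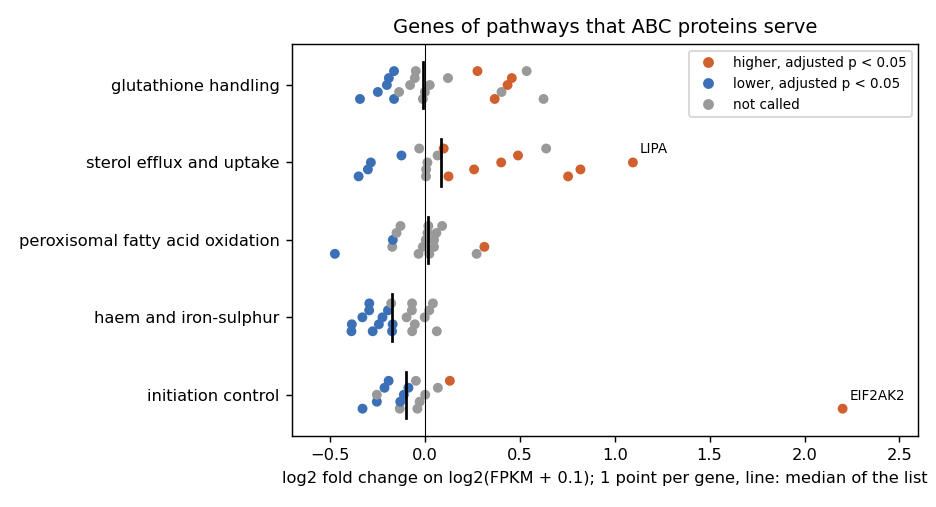
Log2 fold change on log2(FPKM + 0.1) of the tested genes of 5 pathway lists, 1 point per gene, orange where called higher, blue where called lower and grey where not called, with the median of each list as a black line. Points of the haem and iron-sulphur list lie mostly to the left, while EIF2AK2 at 2.20 and LIPA at 1.10 are the DEGs.

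Among the ABCD genes, ABCD4 rose and ABCD3 fell. ABCD4, which with a partner moves vitamin B12 out of lysosomes, had 2.88, 2.92 and 2.72 FPKM untreated and 3.60, 3.62 and 3.70 FPKM treated. The groups were well apart, and the difference was 0.35 on the log2 scale (SE 0.046, adjusted p = 0.0019 in limma). ABCD4, on the minus strand of chromosome 14 from 74285423 to 74303056, shares 624 bp with AC005519.1, a transcript on the same strand that did not pass the test. AC005519.1 had 0.233 ± 0.0941 FPKM untreated and 0.419 ± 0.0680 FPKM treated, without overlap, from 6 to 17 fragments per library (S.D. of 3 libraries, limma adjusted p = 0.11). Its log2 fold change was 0.67 with an interval of 0.027 to 1.32, and the part of shared fragments in the rise of ABCD4 was not tested. ABCD3, the importer of branched-chain acyl-CoA and bile acid precursors, fell from 8.26 ± 0.171 to 7.31 ± 0.220 FPKM (S.D. of 3 libraries each), or by 0.17 on the log2 scale (limma adjusted p = 0.0093).

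Peroxisomal fatty acid oxidation, which ABCD3 feeds, had 17 genes tested, of which 1 rose and 2 fell. The called share was 17.6%, against 32.7% of all genes tested, and the median log2 fold change was 0.01. Limma-voom called 5 of them, 2 higher and 3 lower, against 38.3% of all genes. The larger fall was that of ACOX2, the branched-chain acyl-CoA oxidase, from 4.59 ± 0.224 to 3.27 ± 0.0391 FPKM, and the rise was that of ACBD5, which tethers peroxisomes and binds very-long-chain acyl-CoA, from 4.93 ± 0.195 to 6.15 ± 0.0903 FPKM (S.D. of 3 libraries, limma adjusted p = 0.00055 and 0.0015).

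The ABCF genes, which have no membrane part, were among the 5 most abundant, and all 3 were called. All 3 had an untreated mean of at least 5 FPKM, a level at which 4052 of 6879 genes tested were called. ABCF1, which binds ribosomes and the initiation factor eIF2, had 39.4, 40.2 and 40.7 FPKM untreated and 41.9, 43.4 and 43.2 FPKM treated, a rise of 6.91% (log2 fold change 0.096, limma adjusted p = 0.019). ABCF3 had 13.7, 13.3 and 13.7 FPKM untreated and 14.9, 15.1 and 15.5 FPKM treated, a rise of 11.7% (log2 fold change 0.16, limma adjusted p = 0.0047). ABCF2 had 9.86, 9.54 and 9.34 FPKM untreated and 8.54, 7.56 and 8.15 FPKM treated, and fell by 15.7% (log2 fold change -0.24, limma adjusted p = 0.011).

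These differences were small, and that of ABCF1 was lost without IFNβ replicate 2 or 3, with adjusted p-values of up to 0.067, and without the intensity trend. ABCF2 shares 1914 bp with ABCF2-H2BK1, which was listed at 0. Most genes in the list of initiation control stood at 5 FPKM or more untreated, where 4052 of 6879 genes tested were called and 2660 fell. The called share of this list was 56.2%, against 32.7% of all genes tested. In it 2 of 16 genes rose and 7 fell, with a median log2 fold change of -0.10. EIF2AK2, the interferon-induced kinase that halts translation by phosphorylating eIF2, was its DEG, from 10.2 ± 0.254 to 47.4 ± 0.679 FPKM (S.D. of 3 libraries, limma adjusted p = 3.5e-08). ABCE1 fell from 53.8 ± 1.28 to 42.8 ± 0.349 FPKM (limma adjusted p = 0.00011), next to ABCF1 at 42.8 ± 0.828 FPKM after IFNβ.

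The direction of the called ABC genes went with their untreated level. The untreated libraries enter both values. All 7 called genes under 5 FPKM rose, while of the 6 at 5 FPKM or more, 2 rose and 4 fell. The same lean was present across the table, in which 64.6% of called genes under 5 FPKM and 34.4% of those above were higher. Against genes of a like level, ABCC3 lay above the 95th percentile of log2 fold change and ABCC4 below the 5th. The other ABC genes with values given here lay between these bounds.

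**Figure D4:**
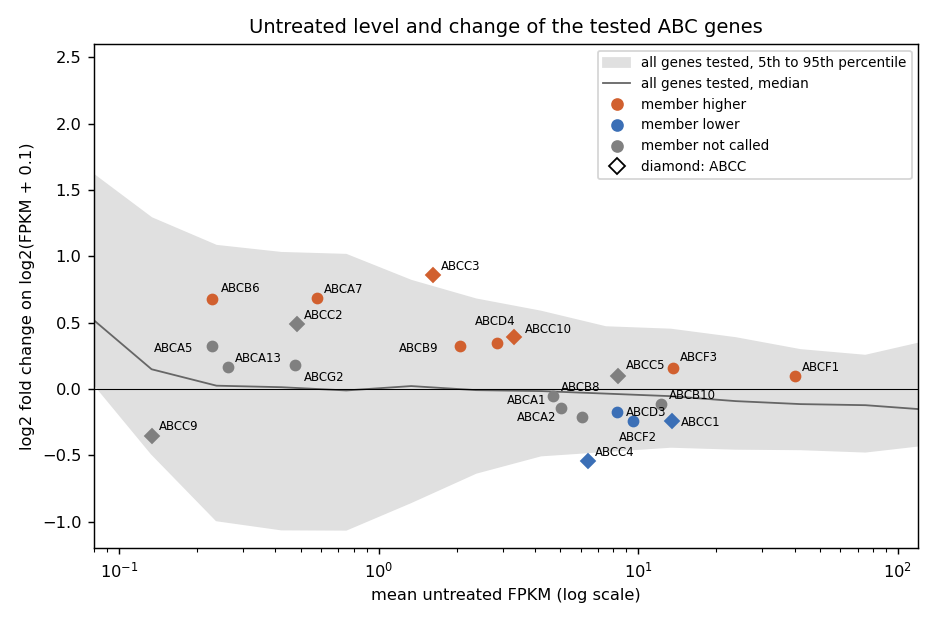
Log2 fold change of 22 of the 24 tested ABC genes on log2(FPKM + 0.1) against the mean untreated FPKM on a logarithmic axis, with diamonds for ABCC, over the median and the 5th to 95th percentile of all genes tested at each level in grey. ABCC3 lies above the grey band, ABCC4 lies below it, and called genes under 5 FPKM all lie above 0.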

How the data were processed

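The 6 HT1080 RNA sequencing libraries were grouped by their labels as untreated or IFNβ-treated, 3 each. FPKM for each Ensembl gene and library were computed by the authors and used as deposited, unfiltered and unpooled. The submitters' processing notes name fastp, HISAT2, StringTie and GRCh38, and the study's methods name DESeq2, which needs counts and was not run here on FPKM. The annotation used for the values is not given in the sources used here, and 4436 of its gene IDs are not in GENCODE release 29, from which locations were taken.

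ABC genes were selected by symbol. Some genes are counted here but not reported by name. The members, the pathway lists and the naming rule were chosen with earlier results of these data known. The rule named called members with an absolute log2 fold change of 0.3 or more, tested ABCC genes, the 5 most abundant members, and in each list the DEGs and the 2 largest changes at a mean of at least 1 FPKM. Groups were compared with limma 3.58.1 in R 4.3.3 (lmFit, eBayes with trend, no covariate) on log2(FPKM + 0.1), leaving out genes averaging under 0.1 FPKM, with Benjamini-Hochberg adjustment. The procedure was tested on simulated data. Values of a gene, multiplied by depth, stood in whole-number proportions for 100% of the 35303 genes above 0, and the smallest such numbers were taken as fragments. For 18024 genes the implied length was the release 29 exon length, after restoring a factor shared by all libraries in 1498 of them. For the other genes a shared factor would go unseen, so their fragments may be too few. The depths stated above were set before this step, as the commonest value that FPKM and release 29 exon lengths implied. The recovered fragments entered limma-voom as an alternative. The other alternatives were pseudocounts of 1 and 0.01, other filters, 3 rescalings, eBayes without trend, a replicate block, an adjusted p-value under 0.01 and each library left out. The remaining steps used pandas 2.3.3 and scipy 1.17.1.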

Additional observations from a re-analysis of the deposited data

How the results depend on the processing

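No tested ABC gene changed its direction under any alternative. At an adjusted p under 0.05, ABCA7, ABCC1, ABCC3, ABCC4, ABCC10, ABCD3, ABCD4, ABCF2 and ABCF3 were called under every alternative that tested them. ABCA7 fell under the filter at a mean of 1 FPKM. Limma-voom on recovered fragments called 21 ABC genes, with 8 lower, and 7 ABCC genes, with 4 higher, and the 13 called in limma were among the 21; it called 38.3% of all genes tested, 18.1% higher and 20.2% lower. The number of DEGs was 1 with a pseudocount of 0.01 and 0 to 1 on leaving out a library in turn, with 1 without untreated replicate 3 or without IFNβ replicate 1. Leaving out each library gave between 11 and 13 called ABC genes, 6 to 9 of them higher and 4 to 5 lower. At an adjusted p-value under 0.01 there were 9, of which 6 were higher and 3 lower. ABCF2 was not among them (limma adjusted p = 0.011). The filter moved the share of all genes called from 17.6% with none to 53.8% at a mean of 1 FPKM.

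Same-numbered libraries did not deviate together, with correlations of 0.053, -0.018 and 0.12, so the numbers are not taken as pairs. With the replicate block 12 ABC genes were called, ABCB6 being lost. ABCB6 was also lost with no filter and with quantile normalization, and ABCC5 was gained with a pseudocount of 1, with the filter at 1 FPKM and with equal totals or median ratio scaling. The causes of these changes were not tested. Depth limits the genes under 0.1 FPKM, and ABCB6 and ABCC9 among those tested.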

Other observations

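Among the 20 ABC genes under the filter, the libraries of both groups did not overlap in FPKM for ABCA4, ABCB11, ABCC11 and ABCG4, all with more after IFNβ. The same held for 7.09% of the 14587 genes under the filter with a value above 0. ABCG4, a sterol transporter best known from brain, had 1, 2 and 2 fragments in untreated libraries and 5, 11 and 10 in treated ones. ABCA4, the retinoid transporter of photoreceptors, had 5, 6 and 4 fragments untreated and 9, 13 and 8 treated. ABCC11, the gene of earwax type, had 3, 3 and 0 fragments untreated and 5, 6 and 5 treated. ABCB11, the bile salt export pump, had 1, 0 and 0 fragments untreated and 3, 4 and 3 treated. These genes were singled out after their values were seen. None gained a call when the filter was dropped, but the 0.1 FPKM added in that fit exceeded their means. That fit could not decide whether they changed, and at such counts no fold is given.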
